A study of Rattus norvegicus with 17 samples.

Results

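The 10 genes Shox2, Calcr, Tnnt1, Clec3a, Npsr1, Tcf7l2, Prkcd, Ntng1, Lef1 and Gbx2, read as marks of thalamus or habenula, were followed through RNA-seq libraries of adolescent rat hippocampus. They are 10 of the 34322 genes in the count table, and each was found there by its symbol. The first 5 were chosen because the study listed them as higher in ethanol-exposed than in pair-fed offspring, so their difference between those groups is described here and not tested. The other 5 were added as genes of the same brain region.

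Long-Evans rat dams received 1 of 3 diets, and the hippocampi of their offspring were collected at 36 to 38 days of age. ET offspring came from a dam on liquid diet with 6.7% ethanol from gestational day 0 to 20, which supplied 36% of its calories. PF offspring came from a dam on the liquid control diet without ethanol, fed in amounts matched to an ET dam, and AD offspring from a dam with free access to chow. Each diet group was 1 litter, so diet and litter cannot be told apart, and p-values measure the spread among littermates. There were 5 ET, 6 PF and 6 AD libraries, 1 for each rat, of which 4 held right and 13 held left hippocampus by label. Values are normalized counts, which are the deposited counts scaled by the trimmed mean of M-values to the mean size of the 17 libraries.

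Totals ran from 10853947 to 17498392 fragments a library. The study left out 3 libraries, ET replicate 2, PF animal 11f6 and AD replicate 4, and all 17 are used here unless the other 14 are named. In those 3 libraries Ttr, the transthyretin that choroid plexus makes in large amounts, had 87591, 100267 and 112289 normalized counts, against at most 14552 in the others. Y-linked counts matched the sex label in 15 libraries, and the 2 that did not match were AD replicates 1 and 2, both left hippocampi, so other labels of these may also be wrong. Of 12 listed hippocampal genes, 10 were above 3 counts in every library: Prox1 of dentate granule cells ran from 111 in ET replicate 1 to 681 in ET replicate 3, and Wfs1 of CA1 from 2426 to 5186. The others were Iyd, at 3 counts or fewer in all 17 libraries, and Spink8, in 11 of 17. In bulk tissue, fewer cells of a type and less RNA per cell cannot be told apart.

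The thalamus lies just below and medial to the hippocampus, and the habenula at its dorsal edge next to the third ventricle, whose roof carries choroid plexus. Thalamic identity is set by homeobox and Wnt-pathway factors: Gbx2 acts in the thalamic neuron precursors, Tcf7l2 and Lef1 are DNA-binding partners of beta-catenin, and Shox2 is a homeobox factor of a subset of thalamic neurons. Prkcd, a protein kinase C isoform, and Ntng1, the membrane-anchored netrin-G1, are used to label thalamic relay neurons and their axons. Calcr and Npsr1 encode G protein-coupled receptors for calcitonin and neuropeptide S, Tnnt1 the slow skeletal muscle troponin T, and Clec3a a C-type lectin found in cartilage.

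RefSeq promoter windows on GRCr8, from 250 bases before to 50 after the start, were held for 8 of the 10 genes. The windows of Calcr, Tcf7l2 and Prkcd are shown because these genes varied together across libraries, and that of Tnnt1 because it did not follow them. Capitals mark matches on either strand to the GC box GGGCGG or the TATA box TATAAA, and matches of the GC box overlap in places.
Calcr, chr4:32691026-32691325, minus strand: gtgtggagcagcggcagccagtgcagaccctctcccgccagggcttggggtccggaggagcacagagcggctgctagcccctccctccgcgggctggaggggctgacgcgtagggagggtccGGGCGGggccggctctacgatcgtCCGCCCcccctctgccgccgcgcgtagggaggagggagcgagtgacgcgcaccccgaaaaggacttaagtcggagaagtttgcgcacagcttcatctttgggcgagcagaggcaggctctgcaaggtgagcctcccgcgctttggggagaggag
Tcf7l2, chr1:264791085-264791384, plus strand: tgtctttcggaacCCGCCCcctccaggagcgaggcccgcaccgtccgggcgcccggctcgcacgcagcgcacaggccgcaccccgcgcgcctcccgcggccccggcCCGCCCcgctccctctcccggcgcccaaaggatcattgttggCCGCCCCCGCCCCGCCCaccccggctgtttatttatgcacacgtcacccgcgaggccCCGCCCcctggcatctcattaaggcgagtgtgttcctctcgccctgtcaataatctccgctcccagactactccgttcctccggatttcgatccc
Prkcd, chr16:5805790-5806089, minus strand: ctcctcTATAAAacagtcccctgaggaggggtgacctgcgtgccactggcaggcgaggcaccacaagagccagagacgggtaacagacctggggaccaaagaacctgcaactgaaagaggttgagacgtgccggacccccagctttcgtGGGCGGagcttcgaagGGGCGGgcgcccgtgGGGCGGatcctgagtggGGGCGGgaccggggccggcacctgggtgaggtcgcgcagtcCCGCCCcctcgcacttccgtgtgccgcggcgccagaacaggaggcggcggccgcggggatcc
Tnnt1, chr1:78348785-78349084, plus strand: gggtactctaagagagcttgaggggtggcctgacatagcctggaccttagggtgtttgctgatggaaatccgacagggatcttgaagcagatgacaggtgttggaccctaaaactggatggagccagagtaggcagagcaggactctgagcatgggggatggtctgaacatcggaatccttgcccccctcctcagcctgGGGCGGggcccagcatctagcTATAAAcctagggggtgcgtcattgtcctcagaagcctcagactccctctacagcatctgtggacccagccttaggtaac

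GC boxes were in 5 of the 8 windows, against 33.1% of 33469 rat promoters, with 6 in Tcf7l2, 5 in Prkcd, 2 in Calcr and 1 in Tnnt1. The TATA box letters were in 2 of 8, against 14.2% of all promoters, and in Tnnt1 they began 30 bases before the start. The letters CTTTGA, or their reverse complement, which TCF and LEF factors bind, were in 0 of the 8 windows and in 16.1% of all promoters.

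Shox2 was at 2.02, 64.2, 99.95, 25.8 and 8.05 normalized counts in ET replicates 1 to 5. In PF it ran from 1.91 to 92.3 with a median of 2.38, and in AD from 1.28 to 37.8 with a median of 3.42. At 3 counts or fewer were 9 of the 17 libraries: 1 of 5 in ET (replicate 1), 5 of 6 in PF (all but animal 11f6) and 3 of 6 in AD. The diets overlapped.

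The ratio of means, ET over PF, was 2.30 for Shox2 over all libraries. Without PF animal 11f6 the PF libraries were all at or under 3 counts, so the ratio is then a lower bound against 3 counts a library: Shox2 was at least 13.6-fold higher in ET, or at least 11.6-fold without all 3 left-out libraries. Without ET replicate 3 instead, the ratio of means was 1.44. Shox2 was too low in too many of the ET and PF libraries together to pass the count filter of the ET against PF fit. Against AD, its log2 fold change in ET was 1.94 (SE 0.91), or 1.21 without ET replicate 3 and 1.57 in the 14 libraries.

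Calcr followed Shox2. It was at 0.34, 27.8, 64.0, 2.91 and 2.90 normalized counts in ET replicates 1 to 5, from 0.35 to 38.7 with a median of 1.80 in PF, and from 0.64 to 10.01 with a median of 2.39 in AD. The 4 libraries with the most Calcr were the same 4 that had the most Shox2: ET replicates 2 and 3, PF animal 11f6 and AD replicate 5. Its ratio of means, ET over PF, was 2.58, which became at least 6.67 without PF animal 11f6, at least 5.97 in the 14 libraries and 1.12 without ET replicate 3. For ET over AD the ratio was 6.01, or 4.75 in the 14 libraries, 2.61 without ET replicate 3 and 7.49 without ET replicate 1. PF over AD was 2.33. In PF and in AD, 5 of 6 libraries each were at or under 3 counts. At or under 3 counts were 13 of 17 libraries.

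Tcf7l2 and Prkcd were present in every library and were highest in the same 4. Tcf7l2 was at 175, 323, 354, 207 and 223 in ET replicates 1 to 5, from 145 to 307 with a median of 151 in PF, and from 155 to 231 with a median of 173 in AD. Prkcd was at 243, 347, 722, 212 and 224 in ET, from 82.5 to 648 with a median of 197 in PF, and from 135 to 275 with a median of 204 in AD. PF animal 11f6 was the highest of its group for both genes, and the next highest PF library had 172 for Tcf7l2 and 214 for Prkcd. AD replicate 5 was the highest of AD for both.

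Lef1 varied little, from 102 to 178 over all libraries, and 3 of its 4 highest were among those of Shox2. Ntng1 ran from 296 in AD replicate 6 to 748 in PF animal 11f6, with 2 of its 4 highest in that set. Gbx2 was near 0: 15 of 17 libraries had 3 counts or fewer, and the other two were ET replicate 2 with 11.7 normalized counts and ET replicate 5 with 4.83. Both libraries above the floor were ET, but 3 of the 5 ET libraries were not, so no fold is given.

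**Figure D1:**
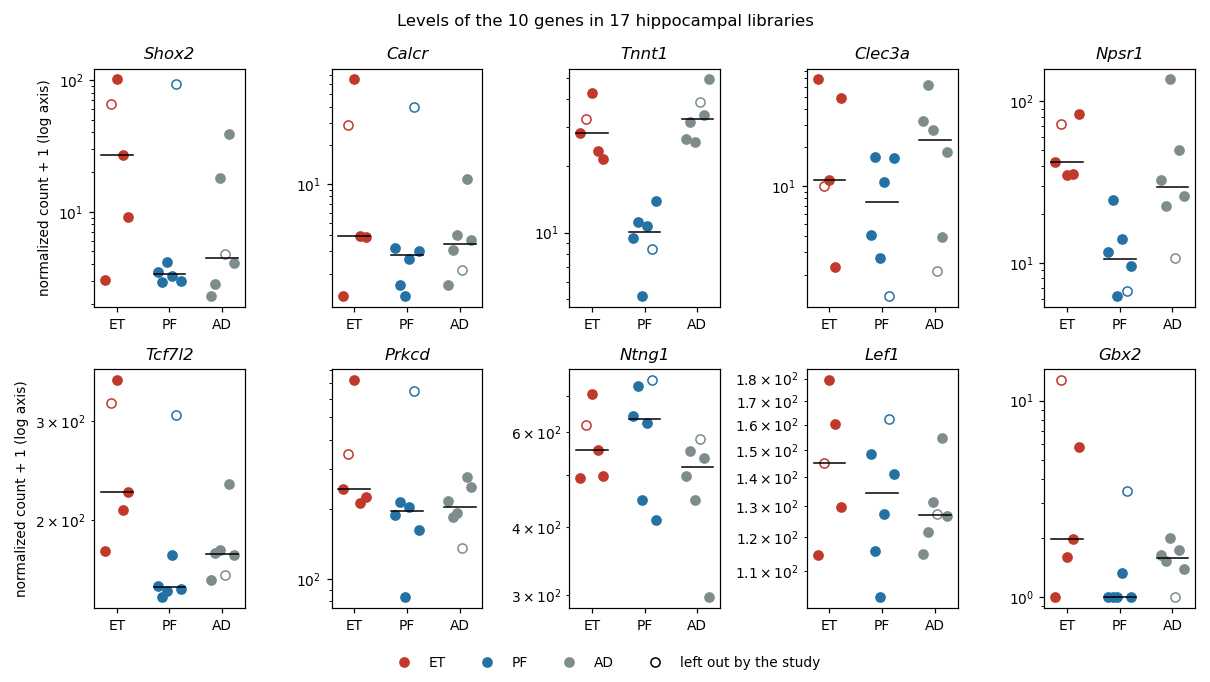
Normalized counts plus 1 of each gene on a log axis (panels differ in range), 1 point a library, by diet; open points are the 3 libraries the study left out and bars are medians. Shox2, Calcr, Tcf7l2 and Prkcd each have a PF point far above the other 5, while PF lies below both other diets for Tnnt1.

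Tnnt1 showed a different pattern, with the PF libraries apart from the rest. It was at 27.3, 31.5, 41.7, 22.3 and 20.6 in ET replicates 1 to 5, from 4.16 to 12.9 with a median of 9.08 in PF, and from 24.8 to 48.2 with a median of 31.7 in AD. Each PF library was below each ET and each AD library, and PF animal 11f6, so high in Shox2, had 7.46. Its log2 fold change was 1.67 (SE 0.26) for ET over PF, -0.22 (SE 0.22) for ET over AD and -1.89 (SE 0.23) for PF over AD.

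Of 16088 genes fitted in ET against PF, 1.21% had all ET libraries above all PF libraries, and of 15902 in PF against AD, 0.685% had all PF libraries below all AD libraries. At an adjusted p under 0.01 with an absolute log2 fold change above 1.5, edgeR's quasi-likelihood test called 0.0373% of genes higher in ET than in PF. These shares are the background to Tnnt1, which was chosen on the ET against PF difference, and the 2 contrasts share the PF libraries. Summed normalized counts of the 6 myelin genes reported, Mbp and Mag among them, ran from 129163 to 171418 in PF, from 168189 to 226688 in ET and from 148652 to 221095 in AD, so that PF overlapped both other diets. Between ET and PF, 0 of the 6 were called by edgeR or DESeq2, while 5 had an unadjusted p under 0.05 with each, where 14.4% of all genes did with edgeR. Between PF and AD, 0 of the 6 were called by either tool and 3 had an unadjusted p under 0.05 with each, where 17.3% of all genes did with edgeR. The median log2 fold change was 0.39 for ET over PF and -0.24 for PF over AD, and Mog lay on the other side of 0 in both, at -0.06 and 0.16. The part of myelin genes in the Tnnt1 difference was not tested.

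Npsr1 was also low in PF. It was at 41.1, 71.0, 34.1, 34.5 and 83.1 in ET replicates 1 to 5, from 5.20 to 23.5 with a median of 9.60 in PF, and from 9.75 to 136 with a median of 28.3 in AD. ET lay above PF without overlap, as it did for 1.21% of all genes fitted, and Npsr1 was chosen on that difference. AD overlapped both, with AD replicate 4 at 9.75 and AD replicate 3 far above at 136. Its log2 fold change was 2.22 (SE 0.37) for ET over PF, 0.21 (SE 0.54) for ET over AD and -2.01 (SE 0.60) for PF over AD. Without AD replicate 3 the last was -1.28 and ET over AD 0.94. ET over AD turned to -0.02 without ET replicate 5 and to -0.11 in the 14 libraries.

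Clec3a spread widely within every diet. It was at 67.4, 8.88, 10.1, 1.29 and 47.7 in ET replicates 1 to 5, from 0.36 to 15.9 with a median of 6.43 in PF, and from 1.13 to 60.7 with a median of 21.9 in AD. The diets overlapped, and 0 of its 4 highest libraries were among the 4 highest of Shox2. Its log2 fold change for ET over PF was 1.76 (SE 0.84), or 1.09 without ET replicate 1. It was 0.15 (SE 0.82) for ET over AD, which ran from -0.53 without ET replicate 1 to 0.74 without AD replicate 2. For PF over AD it was -1.62 (SE 0.75), or -1.02 without AD replicate 2.

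**Figure D2:**
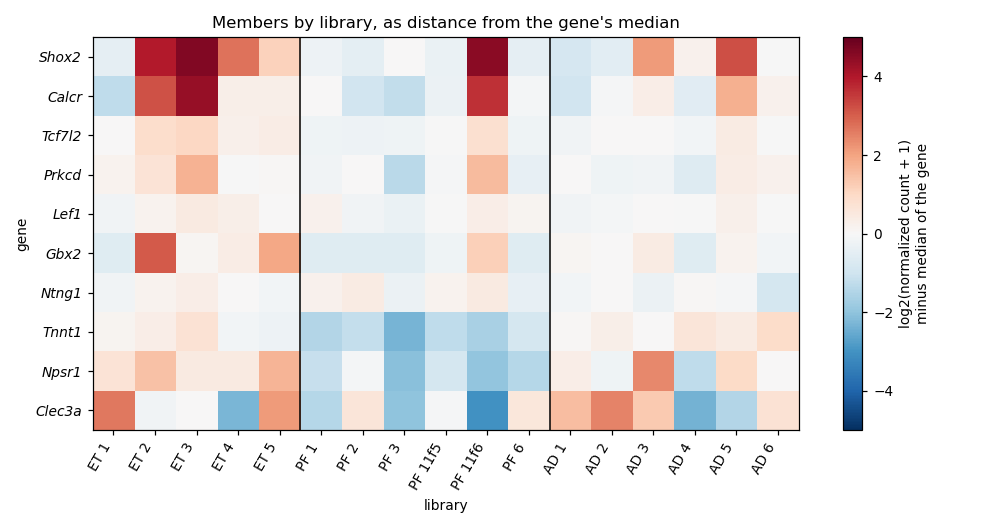
Log2(normalized count + 1) minus the gene's median, for each gene (rows) and library (columns, with lines between ET, PF and AD). Red columns at ET 2, ET 3 and PF 11f6 run through Shox2, Calcr, Tcf7l2 and Prkcd, while Tnnt1 is blue across all 6 PF libraries.

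For the 5 genes that the study did not list as ET-high, the fits against AD were tested. In ET against AD, edgeR's quasi-likelihood test called 0.0127% of 15700 genes in either direction, 0 of the 4 fitted members (Gbx2 was too low) and DESeq2 also 0. The log2 fold change of Tcf7l2 was 0.53 (adjusted p = 0.94 in edgeR, SE 0.18), from 0.37 without ET replicate 3 to 0.64 without ET replicate 1. Prkcd had 0.75 (adjusted p = 1 in edgeR, SE 0.31), which was 0.29 without ET replicate 3. Ntng1 and Lef1 had 0.24 (SE 0.15) and 0.17 (SE 0.11), so 2 of the 4 had an unadjusted p under 0.05 with either tool, where 4.57% of all genes did with edgeR.

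In PF against AD, 0 of the same 4 were called by either tool or had an unadjusted p under 0.05, where edgeR called 2.02% of genes and found 17.3% under 0.05. Tcf7l2 was at 0.00 (SE 0.18), Prkcd at 0.25 (SE 0.38), Lef1 at 0.04 (SE 0.11) and Ntng1 at 0.30 (SE 0.17). Without PF animal 11f6 Tcf7l2 stood at -0.21 and Prkcd at -0.28, and in the 14 libraries at -0.24 and -0.37. For ET over PF, described only, the log2 fold changes were 0.52 (SE 0.24) for Tcf7l2, 0.49 (SE 0.48) for Prkcd, 0.13 (SE 0.14) for Lef1 and -0.07 (SE 0.16) for Ntng1. Prkcd moved to 1.03 without PF animal 11f6 and to 0.04 without ET replicate 3.

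**Figure D3:**
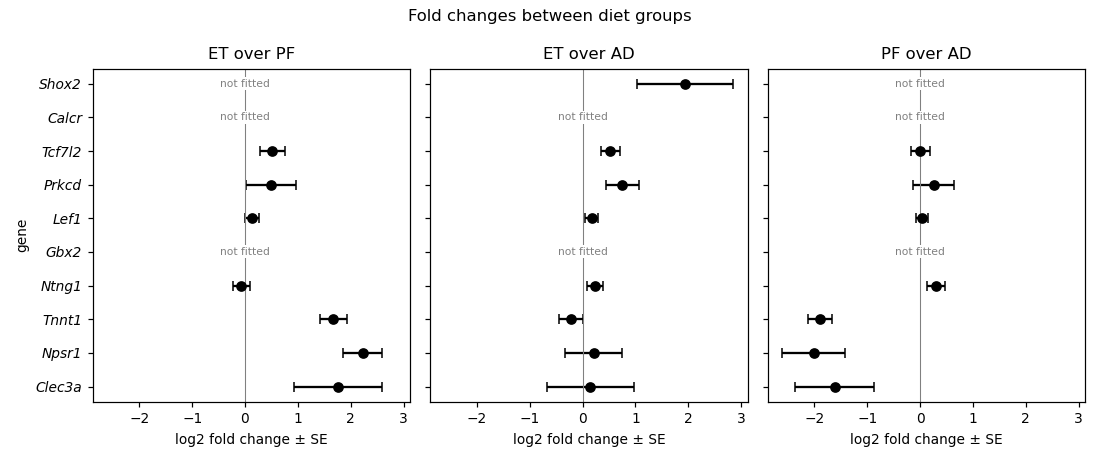
Log2 fold changes with their SE in the 3 diet comparisons (x axis) for each gene (y axis) from edgeR; genes too low for the fit are marked. Tnnt1, Npsr1 and Clec3a lie near 2 in ET over PF, near 0 in ET over AD and near -2 in PF over AD, while Tcf7l2 and Prkcd lie above 0 in ET over either control.

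Hemisphere and sex were tested across diets. Between 4 right and 13 left hippocampi, with diet as a covariate, edgeR called 0% of 16401 genes and 0 of 9 members fitted, DESeq2 called 0 as well, and 1 member had an unadjusted p under 0.05 with each, against 4.9% of genes in edgeR. That one was Npsr1, whose log2 fold change for right over left was 1.06 (adjusted p = 0.99 in edgeR, SE 0.43) and 0.17 without AD replicate 3, the only right hippocampus of AD, or in the ET and PF libraries alone. Between males and females of ET and PF, 0 of 7 members fitted were called by edgeR or DESeq2 and 0 had an unadjusted p under 0.05, where edgeR called 0.0373% of genes and 1.9% were under 0.05.

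A list of 15 other thalamic genes, such as the glutamate transporter Slc17a6 and the zinc-finger factors Zic1 and Zic4, was then set against the members. Its level, the mean of log2(normalized count + 1), ran from 7.24 to 8.0 in ET, from 7.0 to 7.74 in PF and from 7.21 to 7.54 in AD. ET replicates 3 and 2 and PF animal 11f6 had the highest levels, at 8.0, 7.75 and 7.74. Zic1 was at 345, 317 and 347 in those libraries and at most 182 elsewhere, and Zic4 at 58.8, 73.8 and 65.7 against at most 25.5. In all, 9 of the 15 genes were highest in one of these 3 libraries. As the 3 were named for the level of this same list, that count follows in part from the choice. The level of the 12 hippocampal genes did not choose the libraries, so their 4 that were highest there are not a like comparison. The other 6 of the 15 were highest elsewhere. Slc17a6 peaked in AD replicate 3 (662), Rora and Ramp3 in ET replicate 1 (581 and 313) and Lhx9 in ET replicate 4 (155). Foxp2 peaked in AD replicate 6 (120) and Cacna1g in AD replicate 1 (1114).

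No gene of that list was called in a diet comparison. In ET over PF, 0 of 15 were called by edgeR or DESeq2. With each tool 1 had an unadjusted p under 0.05, where 14.4% of all genes did with edgeR. A fold change above 0 was seen for 14, and the median log2 fold change was 0.26, against 0.01 over all genes. In ET over AD, 0 of 15 were called by either tool. Under 0.05 were 3 with edgeR, where 4.57% of all genes were, and 4 with DESeq2. Above 0 were 14, and the median was 0.17, against 0.00. Both comparisons share the ET libraries, of which replicates 2 and 3 had list levels of 7.75 and 8.0 and the others at most 7.48. In PF over AD, 0 of 15 were called by either tool. Under 0.05 were 1 with edgeR, where 17.3% of all genes were, and 0 with DESeq2. Above 0 were 7, and the median was -0.07, against -0.01.

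Across the 17 libraries, 5 members followed the thalamic level. Of 15897 other genes with a mean of at least 10, 45 (0.283%) had an r at least that of Lef1, the lowest of the 5. Prkcd had Pearson's r = 0.92 and Spearman's rho = 0.82, with a two-sided permutation p = 1e-05, the smallest that the resamples can give, and an adjusted p = 0.00015 over 30 relations of 10 genes with 3 lists. Tcf7l2 had r = 0.90 and rho = 0.80 (permutation p = 1e-05, adjusted p = 0.00015). Calcr had r = 0.91 and rho = 0.86 (permutation p = 2e-05, adjusted p = 0.0002). Shox2 had r = 0.80 and rho = 0.64 (permutation p = 0.00017, adjusted p = 0.0013), and Lef1 had r = 0.71 and rho = 0.59 (permutation p = 0.0011, adjusted p = 0.0066). The members and the list were chosen with these libraries already described, so the p-values are not independent evidence of a thalamic pattern.

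Within diets 4 of the 5 relations passed, all but Lef1, and 0.176% of the other genes had an r at least that of Shox2, the lowest of the 4. On deviations from the diet means, r was 0.91 for Prkcd, 0.91 for Calcr, 0.88 for Tcf7l2, 0.75 for Shox2 and 0.68 for Lef1, with adjusted permutation p = 0.0015, 0.0024, 0.005, 0.028 and 0.070. Without ET replicates 2 and 3, which are farthest from the median level, r was 0.89, 0.81, 0.80, 0.66 and 0.58 in the same order. Within the 6 PF libraries, r was 0.996 for Prkcd (exact permutation p = 0.0014, the smallest that 6 libraries can give) and 0.91 for Calcr (exact permutation p = 0.047), with PF animal 11f6 the highest point for both and the only PF library with over 3 counts of Calcr. Within the 6 AD libraries, r was 0.74 for Prkcd (exact permutation p = 0.083) and 0.58 for Calcr (exact permutation p = 0.22), which was at 3 counts or fewer in 5 of the 6, so the Calcr values within PF and within AD each rest on 1 library above the floor. No relation is given within the 5 ET libraries, as relations were computed only within groups of at least 6.

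The other 5 genes did not pass. Gbx2 had r = 0.60 (permutation p = 0.016, adjusted p = 0.078), which became 0.80 (permutation, adjusted p = 0.0037) without ET replicate 3, the fit in which Lef1 no longer passed (r = 0.59, permutation, adjusted p = 0.086). The others were Tnnt1 at 0.42 (adjusted p = 0.29), Npsr1 0.34 (adjusted p = 0.33), Ntng1 0.32 (adjusted p = 0.33) and Clec3a -0.03 (adjusted p = 0.91), all by permutation. With single libraries left out r ran from 0.24 to 0.62 for Tnnt1 and from 0.21 to 0.55 for Npsr1, lowest without PF replicate 3 and highest without PF animal 11f6 for both, and from 0.18 without ET replicate 3 to 0.57 without AD replicate 6 for Ntng1. Tnnt1 rose with the thalamic level to r = 0.69 (permutation, adjusted p = 0.033) when the 3 left-out libraries were dropped. Ntng1 had r = 0.72 within PF and -0.83 within AD (exact permutation p = 0.074 and 0.035), opposite signs in diets of 6 libraries each.

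**Figure D4:**
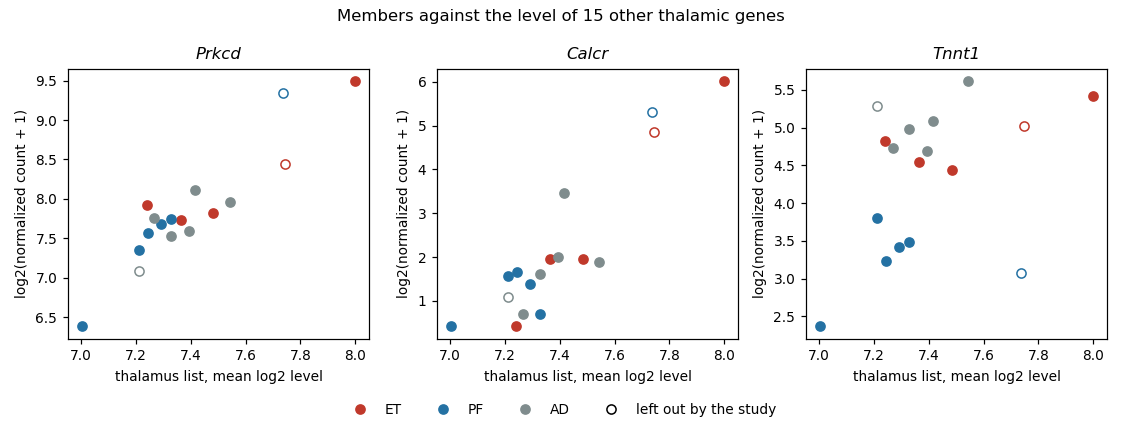
Log2(normalized count + 1) of Prkcd, Calcr and Tnnt1 (y axes) against the mean log2 level of 15 other thalamic genes (x axes), 1 point a library. Prkcd (r = 0.92) and Calcr (r = 0.91) rise along the axis, and Tnnt1 (r = 0.42) splits by diet, with PF lowest at every thalamic level.

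Of 12 habenular genes listed, 7 were above 3 counts in every library, among them Tac3 from 144 to 227, Htr5b from 125 to 333, Gng8 from 79.5 to 150 and Slc5a7 from 52.0 to 179. The defining markers Gpr151 and Pou4f1 were near 0, from 1.0 to 5.6 and from 0 to 2.7 normalized counts, and Pou4f1 was at 3 counts or fewer in all 17 libraries. Chrnb4, a nicotinic receptor subunit of the medial habenula, had 190 in AD replicate 6 and at most 8.4 elsewhere; in that library Tph1, a serotonin enzyme of the pineal gland, had 12886 against at most 84.0 elsewhere. Shox2 was at 3.08 there. Over the 17 libraries 0 of 10 relations of members with the habenular level passed by permutation, with 2 unadjusted p under 0.05, for Tnnt1 and Npsr1. Without AD replicate 6, Npsr1 (r = 0.67, permutation, adjusted p = 0.022) and Gbx2 (r = 0.62, permutation, adjusted p = 0.026) passed, the latter with 15 of 17 libraries at 3 counts or fewer. In ET over PF, 0 of 7 habenular genes fitted were called by edgeR or DESeq2. With each tool 1 had an unadjusted p under 0.05, where 14.4% of all genes did with edgeR. In ET over AD, 0 of 8 were called by either tool. Under 0.05 were 1 with edgeR, where 4.57% of all genes were, and 2 with DESeq2. In PF over AD, 0 of 7 were called by either tool, and 1 was under 0.05 with each, where 17.3% of all genes were with edgeR.

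Choroid plexus genes split the libraries into separate sets, the 3 left-out ones with list levels of 10.7 to 10.98 and the other 14 between 3.32 and 8.13. Shox2 differed inside the high set, at 64.2 and 92.3 in ET replicate 2 and PF animal 11f6 and 3.75 in AD replicate 4. ET replicate 3, the highest for Shox2, had a Ttr of 642. Within the 14, Shox2 had r = -0.04 and rho = 0.09 with the choroid level (permutation p = 0.88 and 0.77), and 0 of 10 members had an unadjusted p under 0.05. Over all 17, 0 of 10 choroid relations passed an adjusted p of 0.05.

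Neocortical genes also split the libraries, 8 with list levels from 7.47 to 7.92 and 9 from 8.22 to 8.57. Clec3a lay between 0.36 and 10.1 in the first set and between 9.74 and 67.4 in the second, whereas Shox2 lay between 2.49 and 99.95 and between 1.28 and 17.1. Each diet was in both sets, with 3 ET, 3 PF and 2 AD libraries in the first. Inside a set Clec3a did not follow the level (r = -0.21 and rho = 0.05, exact permutation p = 0.62 and 0.93, in the 8; r = 0.29 and rho = 0.47, exact permutation p = 0.46 and 0.21, in the 9). Of the 30 relations within sets, choroid included, 1 passed an adjusted p of 0.05, that of Gbx2 in the first neocortical set (r = -0.92, exact permutation, adjusted p = 0.0045), where most libraries were under 3 counts. Shox2 had r = -0.71 and rho = -0.69 in the first set and r = -0.67 and rho = -0.27 in the second (exact permutation, adjusted p = 0.43 for each r, 0.43 and 0.96 for rho). Neocortical markers thus moved with Clec3a between sets, and their part in its spread was not tested.

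**Figure D5:**
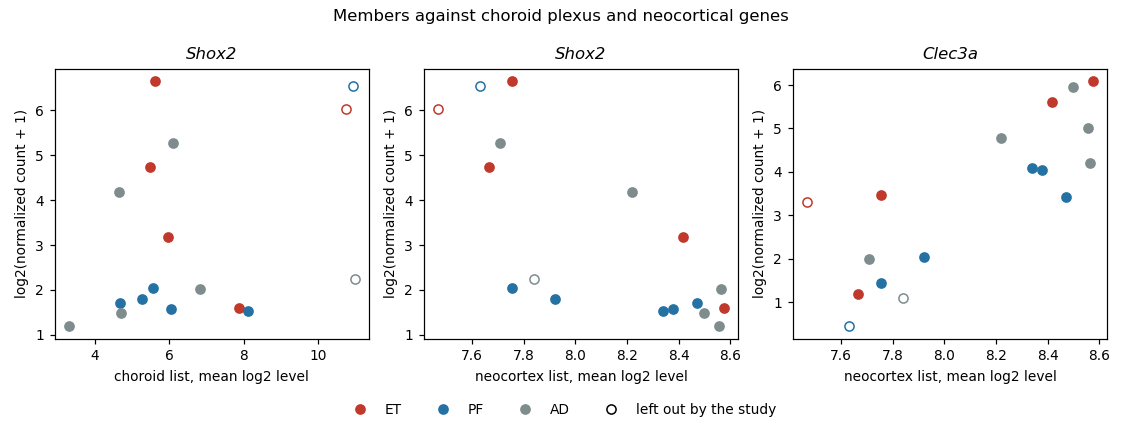
Log2(normalized count + 1) of Shox2 against the choroid and neocortex list levels and of Clec3a against the neocortex level, 1 point a library. Shox2 is high in libraries of the lower choroid set (99.95) and of the higher one (92.3), where AD replicate 4 has 3.75. Clec3a lies between 0.36 and 10.1 normalized counts in the lower neocortical set and between 9.74 and 67.4 in the higher one.

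Genes that act with the members were looked at from a list of 18. None was called in a diet comparison: 0 of 12 fitted passed in ET against PF, ET against AD or PF against AD with edgeR or DESeq2. An unadjusted p under 0.05 was found for 14.4%, 4.57% and 17.3% of all genes with edgeR, and for 1, 0 and 1 of the 12 with each tool. With edgeR that gene was Nkd1, a Wnt target and inhibitor, whose log2 fold change was 0.49 for ET over PF (adjusted p = 0.0032 in edgeR, SE 0.09) and -0.40 for PF over AD (adjusted p = 0.0061 in edgeR, SE 0.08), both under the fold limit. Ramp1 and Ramp2, which turn the calcitonin receptor into receptors for related peptides, were present from 147 to 362 and from 212 to 362 normalized counts. Calca and Calcb, which encode calcitonin and related peptides, were low, from 2.4 to 17.5 and from 4.5 to 11.3. The amylin gene Iapp and the neuropeptide S gene Nps, which encode ligands for Calcr with Ramp proteins and for Npsr1, were at or under 3 counts in all 17 libraries, and so was Tnni1, the slow troponin I partner of Tnnt1, while Tnnc1, the slow troponin C, ran from 17.7 to 29.0. Lrrc4c, the ligand of netrin-G1, was present from 1075 to 1829, and beta-catenin, Ctnnb1, from 4586 to 5915.

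The genes most like the members were ranked by the correlation of deviations from diet means over 17 libraries, among 15912 genes with a mean of at least 10. For the mean pattern of the 10 members these were Zic4 (r = 0.88), Zic2 (0.85), Plch1 (0.84), Zfhx3 (0.83) and Plod1 (0.82), and Zic4 was also in the thalamic list. For Shox2 alone they were Tcf7l2 (0.91), Synpo2 (0.91), of the thalamic list, and Vangl1 (0.88). Lef1 ranked 37, Prkcd 190, Ntng1 2642 (r = 0.42), Npsr1 7277 (0.07), Tnnt1 7571 (0.05) and Clec3a 15090 (-0.62) of 15919 for Shox2. Zic2 stood at 462, 377 and 426 in ET replicates 2 and 3 and PF animal 11f6, and 302 or less in the others.

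In the GRCr8 annotation, Shox2 overlaps Rsrc1, which had 310 to 523 averaged counts in these libraries. The study let reads map to several features in the counting, and it is not stated whether the counting used strand. Reads of the pair may thus not be fully told apart. Whether Rsrc1 reads add to the Shox2 counts was not tested. Tcf7l2, Ntng1 and Lef1 overlap non-coding genes, and those in the count table had at most 4.67 counts in any library. Tnnt1, Clec3a, Prkcd and Gbx2 overlap no other annotated gene, Calcr none other than microRNAs, and Npsr1 a pseudogene.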

How the data were processed

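RNA-seq libraries of hippocampus from 17 rats (5 ET, 6 PF, 6 AD) were analysed. Per the study's methods, libraries were Illumina TruSeq stranded mRNA, reads were trimmed with fastp and mapped to mRatBN7.2 with Bowtie2 2.4.2, and fragments over exons of 34322 genes were counted with featureCounts 2.0.1 at a mapping quality of at least 10. Per the same methods, a read could map to several features. The annotation release and the strand setting are not given in the sources used here. The deposited values are estimated counts, since the authors averaged the counts of 3 technical replicates of each sample: 99.8% of values are whole within 1e-05 once multiplied by 3. They were rounded to whole numbers for the count tests. Totals were 10853947 to 17498392 fragments, and the floor of 3 counts covers counting error only.

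Columns were assigned to samples by animal name, and 2 PF males (animals 11f5 and 11f6) by diet only. Differences were tested with edgeR 4.0.16 (R 4.3.3; trimmed mean of M-values scaling, filterByExpr, quasi-likelihood test, Benjamini-Hochberg over all genes fitted), and genes were called at an adjusted p under 0.01 and an absolute log2 fold change above 1.5. SE is the fold change over the root of F. No p is given for members in ET against PF, for the 5 ET-high genes in any diet comparison, or for Shox2 and Calcr between sexes, since those values chose them. AD libraries were kept out of the sex comparison because 2 did not match their label. Relations with list levels used log2(normalized count + 1) and 100000 permutations, exact within groups of 9 or fewer; relations within sets of libraries were added after the values were seen. The smallest chi-square per gene between libraries of 1 diet was 8.64, so no library was a repeat of another. The tests were tested on simulated data. Members and lists were chosen with earlier results of these data known. Named genes were all members, any list gene called, the 5 most like the members and the 3 most like Shox2; the individual list genes given with values, Nkd1 among them, were chosen after their values were seen. 1 listed gene is not reported here. Alternatives were DESeq2 1.42.0, median-of-ratios scaling, no filter, 14 libraries, single libraries left out, sex or replicate terms, 1 fit of all diets, another pseudocount (5) and summed list counts; hemisphere in ET and PF alone was added after the values were seen.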

Additional observations from a re-analysis of the deposited data

Results flagged for a closer look

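In 45 groups of values, 10 members and 5 list levels in each of 3 diets, 5 held a library whose gap to its neighbour exceeded Dixon's 95% critical value on the log2(normalized count + 1) scale; chance gives about 1 in 20 groups. Of these, 4 were PF animal 11f6: Shox2 at 92.3 normalized counts against 3.12 for the next PF library, Calcr at 38.7 against 2.18, Tcf7l2 at 307 against 172, and Gbx2 at 2.49 against 0.32, the last under 3 counts before scaling. The fifth was AD replicate 5 for Tcf7l2, at 231 against 176 for the next AD library.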

How the results depend on the processing

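DESeq2, other scaling and the single fit of all diets changed the direction or call of no fold change given for a member. The replicate number was no pairing: same-numbered libraries came from different litters, and their deviations correlated from -0.05 to 0.59 (ET and PF, 3 pairs), -0.38 to 0.26 (ET and AD, 5 pairs) and -0.08 to 0.27 (PF and AD, 4 pairs). With a replicate block, genes higher and lower in ET than in PF numbered 3 and 171 against 6 and 344, and genes lower in ET than in AD 0 against 2. The block leaves only libraries whose number is in both diets to set the fold, without PF animal 11f6. In ET over PF, Prkcd (0.49) was 1.33 with the block and 1.44 in the same libraries without it, Tcf7l2 (0.52) 0.88 and 0.94, Tnnt1 (1.67) 2.09 and 2.11, and Ntng1 (-0.07) 0.00 and 0.00; those libraries without the block, a fit added after the data were seen, gave 1 gene higher and 294 lower in ET than in PF. Fits that kept low counts found 12 genes higher in ET than in PF, and 516 higher and 10 lower in PF than in AD, against 316 and 5. DESeq2 found 2 genes lower in males, against 1.

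Folds near 0 changed sign. In PF over AD, Tcf7l2 (0.00) became -0.24 without the 3 libraries, -0.010 with sex and -0.18 with the replicate block or with its libraries alone; Prkcd (0.25) became -0.37 without the 3 libraries, -0.41 with the block and -0.37 with its libraries alone, and Lef1 (0.04) -0.021 without the 3. In ET over AD, Npsr1 (0.21) became -0.11 without the 3 libraries and ran from -0.02 to 0.94 with single libraries left out, and Clec3a (0.15) from -0.53 to 0.74; in ET over PF, Ntng1 became 0.00 without PF animal 11f6. Clec3a against the thalamic level (r = -0.03) became 0.080 with summed counts and 0.12 without the 3. Leaving out single libraries gave -0.21 to 0.10 for Tcf7l2, -0.28 to 0.43 for Prkcd and -0.020 to 0.10 for Lef1 in PF over AD, and -0.17 to 0.14 for Clec3a. It gave 0 to 1 genes higher in ET than in AD (1 without ET replicate 1), 1 to 2 lower in males, and 0 to 2 members following the habenular level (Npsr1 and Gbx2, without AD replicate 6). The number following the thalamic level was 5 in each such fit, but without ET replicate 3 Gbx2 (r = 0.80) took the place of Lef1 (r = 0.59). Lef1 also lost its relation with summed counts (r = 0.50, permutation, adjusted p = 0.19). The causes were not tested. Most libraries held 3 counts or fewer of Shox2, Calcr and Gbx2, which limits their ratios and relations.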
